A study of Homo sapiens with 6 samples.

Results

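The genes described here encode the enzymes that add methyl groups to lysines of histones, the writers, and those that remove them, the erasers. They were picked out by name and a minimum count, a choice made with earlier results of these data known. Symbols beginning with KMT, KDM or SETD followed by a number, SETDB, EZH1, EZH2, EHMT1, EHMT2, NSD1, NSD2, NSD3, SUV39H and DOT1L gave 61 rows of the deposited table, and 6 transcripts named with a hyphen after a neighbour, 6 pseudogenes and 3 genes with a mean under 10 counts (KDM4E, KDM4F and KDM5D) were set aside. The 46 that remained, of 50868 genes in the table and 15953 tested, all passed the filter on low counts. The member nearest to that limit, SETD9, had a mean of 87.5 counts per library, and the highest of the 3 genes below it, KDM4E, had 0.333.

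Messenger RNA was sequenced from wild-type HEK-293T, a transformed human embryonic kidney line. One group received 10 µM nitidine chloride, a plant alkaloid of the benzophenanthridine type, in its medium for 12 h, and the other the solvent DMSO for the same time. Each group had 3 libraries, and the submitters' title names mTORC1 signalling as the subject. The labels do not say whether the 3 libraries came from separate cultures, so p-values measure only the spread between these libraries, which may be technical.

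Histone lysine methylation is a set of marks whose meaning depends on the residue. Methylation of H3K4 marks promoters and enhancers of active genes, that of H3K36 and H3K79 lies over transcribed bodies, and that of H3K9, H3K27 and H4K20 is tied to silent or compacted chromatin. Nearly all writers carry a SET domain, DOT1L being the exception, while erasers are either flavin-dependent amine oxidases (KDM1A and KDM1B) or JmjC-domain dioxygenases. Most activities are shared by paralogues that arose by gene duplication, and paralogues can encode much the same protein in genes of very different length.

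Library totals lay between 13273432 and 15620937 counts in nitidine chloride libraries and between 12688093 and 16357992 in DMSO libraries. The members were covered by a mean of 87.5 to 4683 counts per library. The line's own markers were present, with 7 listed markers summing to 134.0 to 166 FPKM in nitidine chloride libraries and 106 to 133 FPKM in DMSO libraries, although the kidney factor PAX2 stayed below 1 FPKM in all 6. All 5 blood, all 3 liver and all 4 endothelial markers were below 1 FPKM in every library, with CD3E and TTR at 0. Of 5 fibroblast markers 4 were below 1 FPKM, and COL1A1 took the summed level to 4.64 to 5.12 FPKM in nitidine chloride libraries and 2.70 to 3.11 FPKM in DMSO libraries. The part of these marker differences in the results was not tested.

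Of the 46 genes 33 changed after nitidine chloride, 11 rising and 22 falling, and 13 did not pass. These are 71.7% of the members, whereas 51.7% of all tested genes changed (edgeR's quasi-likelihood test, Benjamini-Hochberg adjusted p under 0.05). By direction, 23.9% rose and 47.8% fell, against 24.7% and 27% of all tested genes. The share that rose is thus near the background. In 34 of the 46 members the CPM values (counts scaled to the library's total after TMM normalisation) of the groups did not overlap, against 60.7% of all tested genes. The median log2 fold change, nitidine chloride over DMSO throughout, was -0.14 for the members and 0.01 for all tested genes. Without DMSO replicate 1 only 7 members rose and 21 fell, and without each of the other libraries 8 to 11 rose and 20 to 23 fell. When libraries were scaled by their total alone the median of all tested genes moved to 0.12 and that of the members to -0.04, and 57.9% of the calls of all genes were then higher, against 47.7% with TMM scaling. Of the members 14 rose and 21 fell under that scaling. In bulk RNA, fewer cells that make a transcript and less of it per cell cannot be told apart.

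The members fell more the longer the stretch of genome they occupy. Genomic span, the distance from first to last base of the gene with introns, ran from 5.70 kb (SETD6) to 418 kb (KDM4C), with a median of 66.3 kb against 27.3 kb for all tested genes. Of the 14 members of 100 kb or more, 0 rose, 11 fell and 3 did not pass, where 80.4% of all tested genes of that span fell and 2.12% rose. Of the 18 members under 50 kb, 10 rose, 1 fell and 7 did not pass, where 34% of tested genes rose and 10% fell. The 14 members between 50 and 100 kb held 10 that fell and 1 that rose, KDM4A, against 39.8% and 10.5% of tested genes of that span. A shift of 2-fold or more was found in 6 members, all lower (KDM4C, KMT2C, KDM6A, EHMT1, KDM4B and SETD3). Among all tested genes 11.7% fell and 3.87% rose by that much.

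From 20 kb upward the class medians of the members were lower the longer the class, as were those of all genes. In members of 200 kb or more the median log2 fold change was -2.45 (n = 4), against -2.00 for all tested genes of that span. It was -0.72 for members of 100 to 200 kb (n = 10, all genes -0.84), -0.37 for 50 to 100 kb (n = 14, all genes -0.21), 0.22 for 20 to 50 kb (n = 11, all genes 0.14), 0.08 for 10 to 20 kb (n = 5, all genes 0.30) and 0.49 for 5 to 10 kb (n = 2, all genes 0.31). Between 100 and 200 kb 0 of 10 members rose and 7 fell, against 2.65% and 75% of all tested genes, and from 200 kb up 0 of 4 rose and 4 fell, against 1.24% and 89.3%. Between 20 and 50 kb 6 of 11 members rose and 1 fell (30.8% and 12.2% of all tested genes), between 10 and 20 kb 2 of 5 rose and 0 fell (44.2% and 6.3%), and between 5 and 10 kb both rose (44% rose and 6.69% fell). Across the 46 genes, the Spearman correlation between span and log2 fold change was -0.82, and -0.47 across all 15953 tested genes. These are descriptions across genes of the same libraries, and genes are not independent replicates. Each nitidine chloride library set against the DMSO mean gave a Spearman correlation of -0.79, -0.79 and -0.84. Members of 100 kb or more had a median log2 ratio to the DMSO mean of -0.97, -0.91 and -0.76 in the nitidine chloride libraries. In the DMSO libraries, each set against the mean of the other DMSO libraries, it was -0.07, 0.06 and -0.01. Members under 50 kb had 0.22, 0.24 and 0.21 in nitidine chloride libraries and -0.02, 0.01 and 0.04 in DMSO libraries. The order by span thus appeared in each treated library.

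**Figure D1:**
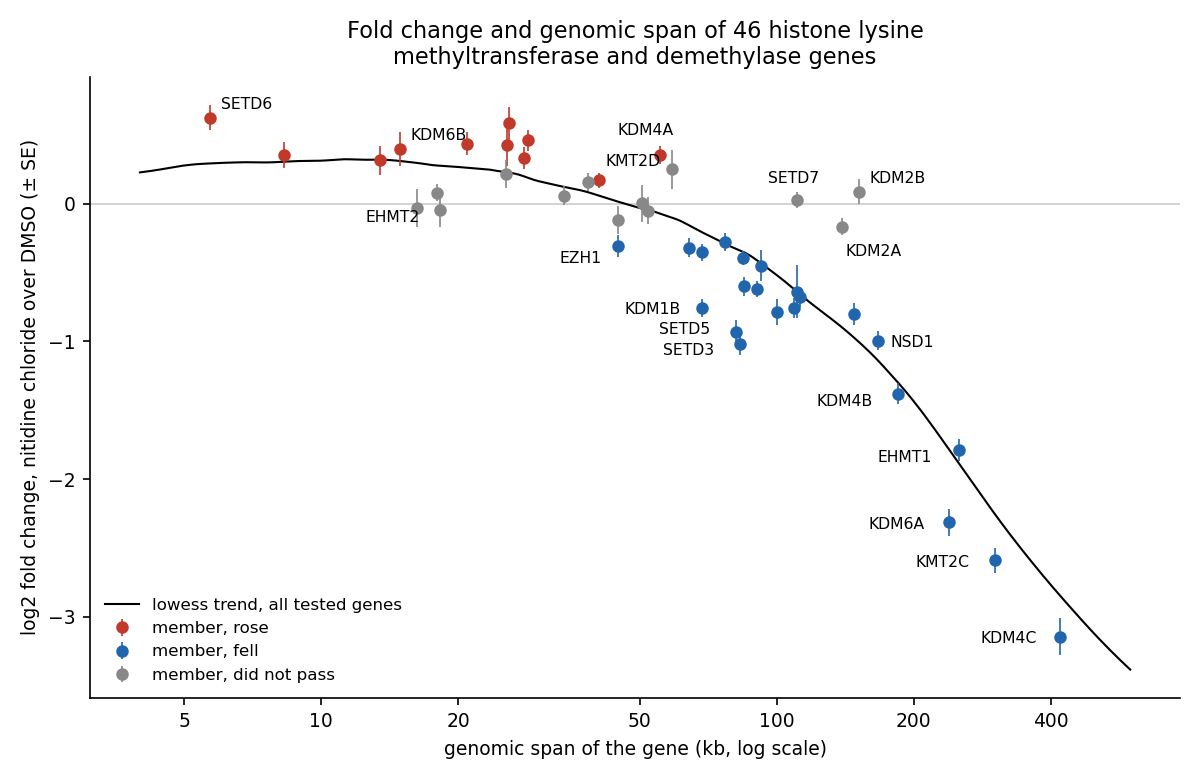
Log2 fold change (nitidine chloride over DMSO, ± SE, 3 libraries per group) of each of the 46 members against genomic span in kb on a log axis, with the lowess trend of all tested genes as a line. The 4 members of 200 kb or more lie between -3.15 and -1.79, and KDM2A, KDM2B and SETD7 stand above the line at spans over 100 kb.

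Other features of the genes went less closely with the change. The Spearman correlation with the log2 fold change was -0.75 for the longest intron of the longest coding transcript, -0.52 for its first intron, -0.46 for its number of exons, -0.32 for its mature length and -0.28 for its coding length. With the DMSO level in FPKM it was -0.06. Span and coding length were themselves related, with a Spearman correlation of 0.38. KMT2D, with the longest coding sequence of the set (16611 bases in a gene of 40.8 kb), and KMT2C (14733 bases in 301 kb) show both measures apart, since KMT2D had a log2 fold change of 0.17 and KMT2C one of -2.59.

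Among the 8 writers of H3K4 methylation 4 rose, 3 fell and 1 did not pass. KMT2A to KMT2D are the catalytic subunits of MLL-type COMPASS complexes, KMT2A and KMT2B acting mainly at promoters and KMT2C and KMT2D at enhancers. KMT2C had 21.6, 23.4 and 22.4 CPM in the nitidine chloride libraries, against 127, 151 and 128 CPM in the DMSO libraries. KMT2D had 303, 303 and 317 CPM in the nitidine chloride libraries, against 265, 281 and 273 CPM in the DMSO libraries. KMT2C was thus far lower in each treated library than in any control, with a log2 fold change of -2.59 ± 0.09 (SE, adjusted p = 9.54e-07), while KMT2D rose by 0.17 ± 0.06 on the log2 scale (SE, adjusted p = 0.0334). KMT2C lies at chr7:152134922-152436005 and KMT2D at chr12:49018975-49059774. These positions are the table's, most of which match GRCh38. The rise of KMT2D was lost without nitidine chloride replicate 3 (adjusted p = 0.0886), DMSO replicate 1 (adjusted p = 0.123) or DMSO replicate 3 (adjusted p = 0.1), and over all alternatives its adjusted p ran from 0.00435 to 0.123. KMT2D also shares 223 bases on the same strand with PRKAG1, whose reads cannot be told apart from its own there.

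KMT2A had 135, 126 and 133 CPM in the nitidine chloride libraries, against 196, 200.3 and 207 CPM in the DMSO libraries. KMT2B had 102, 124 and 112 CPM in the nitidine chloride libraries, against 77.7, 84.5 and 87.1 CPM in the DMSO libraries. The groups of both genes were separate, KMT2A lower and KMT2B higher, with log2 fold changes of -0.62 ± 0.06 (SE, adjusted p = 9.03e-05) and 0.44 ± 0.09 (SE, adjusted p = 0.00380). KMT2A spans 90.3 kb (chr11:118436490-118526832) and KMT2B 20.9 kb (chr19:35718019-35738878). SETD1B and SETD1A, which make most trimethylated H3K4 and span 28.4 and 27.8 kb, rose. SETD1B had 58.7, 58.6 and 56.4 CPM in the nitidine chloride libraries, against 39.0, 42.1 and 44.9 CPM in the DMSO libraries, and its groups did not overlap. SETD1A had 143, 164 and 152 CPM in the nitidine chloride libraries, against 118, 114 and 132 CPM in the DMSO libraries, also without overlap. The log2 fold changes were 0.46 ± 0.08 (SE, adjusted p = 0.00168) for SETD1B and 0.33 ± 0.08 (SE, adjusted p = 0.0102) for SETD1A. KMT2E, a relative with little known catalytic activity, fell by 0.79 ± 0.09 on the log2 scale (SE, adjusted p = 3.03e-04), and SETD7, which monomethylates H3K4 and many other proteins, had 0.03 (adjusted p = 0.714).

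The 6 writers of H3K9 methylation split differently, with 1 higher, 1 lower and 4 that did not pass. EHMT1 and EHMT2 (also called GLP and G9a) work as a heterodimer that places mono- and dimethyl marks on H3K9 in euchromatin. EHMT1 had 24.4, 28.0 and 27.3 CPM in the nitidine chloride libraries, against 86.4, 94.5 and 94.3 CPM in the DMSO libraries. EHMT2 had 121, 131 and 131 CPM in the nitidine chloride libraries, against 117, 118 and 127 CPM in the DMSO libraries. EHMT1 (251 kb, chr9:137618963-137870016) fell to 0.290 of its DMSO level, a log2 fold change of -1.79 ± 0.08 (SE, adjusted p = 2.39e-06), and its groups lie far apart. EHMT2 (17.9 kb, chr6:31879759-31897687) had a log2 fold change of 0.08 ± 0.06 (SE, adjusted p = 0.320). EHMT2 passed at 0.19 when libraries were scaled by their total alone (adjusted p = 0.0337), and over all alternatives its adjusted p ran from 0.0337 to 0.560. SUV39H1, one of the enzymes that trimethylate H3K9 in constitutive heterochromatin, rose. SUV39H1 had 35.99, 45.1 and 36.02 CPM in the nitidine chloride libraries, against 31.9, 31.1 and 31.2 CPM in the DMSO libraries. Its groups did not overlap, and its log2 fold change was 0.32 ± 0.11 (SE, adjusted p = 0.0387). That call was lost without nitidine chloride replicate 2 (adjusted p = 0.0602), DMSO replicate 1 (adjusted p = 0.0782), DMSO replicate 2 (adjusted p = 0.0729) or DMSO replicate 3 (adjusted p = 0.0959), and over all alternatives its adjusted p ran from 0.00795 to 0.0959. The remaining genes were its paralogue SUV39H2 at 0.22 ± 0.10 (SE, adjusted p = 0.105), SETDB1, which silences retroelements, at 0.16 ± 0.07 (SE, adjusted p = 0.0779), and SETDB2 at 0.00 (adjusted p = 0.991). SUV39H2 had 53.6, 44.3 and 50.05 CPM in the nitidine chloride libraries, against 44.4, 44.4 and 38.5 CPM in the DMSO libraries. SETDB1 had 74.6, 84.3 and 78.95 CPM in the nitidine chloride libraries, against 70.3, 71.5 and 71.1 CPM in the DMSO libraries. SETDB2 had 21.5, 15.5 and 18.05 CPM in the nitidine chloride libraries, against 19.6, 16.9 and 18.5 CPM in the DMSO libraries. The groups of SUV39H2 and SETDB2 overlap and those of SETDB1 do not. SUV39H2 passed the threshold without nitidine chloride replicate 2 (adjusted p = 0.0393) and SETDB1 without nitidine chloride replicate 1 (adjusted p = 0.0439). Over all alternatives the adjusted p of SUV39H2 ran from 0.0330 to 0.296 and that of SETDB1 from 0.00754 to 0.185.

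Both writers of H3K27 methylation fell a little. EZH2 is the main catalytic subunit of Polycomb repressive complex 2 (PRC2) in dividing cells, and EZH1 its less active alternative. EZH2 had 120.0, 133 and 125 CPM in the nitidine chloride libraries, against 149, 151 and 159 CPM in the DMSO libraries. EZH1 had 39.4, 35.2 and 40.7 CPM in the nitidine chloride libraries, against 45.7, 49.0 and 47.8 CPM in the DMSO libraries. Each gene's groups were separate by a small margin, with log2 fold changes of -0.28 ± 0.06 (SE, adjusted p = 0.00783) for EZH2 and -0.31 ± 0.08 (SE, adjusted p = 0.0161) for EZH1. The call for EZH1 was lost without DMSO replicate 2 (adjusted p = 0.0817) or DMSO replicate 3 (adjusted p = 0.0519), and over all alternatives its adjusted p ran from 0.0133 to 0.0930. EZH1 was the one member under 50 kb that fell.

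All 4 writers of H3K36 methylation fell, and all span over 100 kb. Of all tested genes of 100 to 200 kb, the class of these 4, 75% fell, with a median log2 fold change of -0.84. The 4 genes lay between -0.15 (NSD1) and 0.20 (NSD2) log2 units from that median, so their falls are near those of genes of like span. SETD2 makes the trimethyl mark behind elongating RNA polymerase II, and NSD1, NSD2 and NSD3 make the mono- and dimethyl marks. NSD1 had 127, 146 and 139 CPM in the nitidine chloride libraries, against 272, 281 and 267 CPM in the DMSO libraries. NSD2 had 72.1, 131 and 89.3 CPM in the nitidine chloride libraries, against 148, 154 and 155 CPM in the DMSO libraries. NSD1 was lower in each treated library than in each control by a wide margin. NSD3 had 116, 105 and 121 CPM in the nitidine chloride libraries, against 179.6, 181 and 186 CPM in the DMSO libraries, again without overlap. NSD2 was less uniform, since nitidine chloride replicate 2 stood close to the controls. The log2 fold changes were -0.995 ± 0.07 (SE, adjusted p = 1.56e-05) for NSD1 (167 kb), -0.64 ± 0.19 (SE, adjusted p = 0.0260) for NSD2, -0.68 ± 0.07 (SE, adjusted p = 1.30e-04) for NSD3 and -0.80 ± 0.08 (SE, adjusted p = 1.06e-04) for SETD2 (148 kb). NSD2 lost its call without nitidine chloride replicate 3 (adjusted p = 0.0747), DMSO replicate 1 (adjusted p = 0.05 after rounding), DMSO replicate 2 (adjusted p = 0.0617) or DMSO replicate 3 (adjusted p = 0.0625), and over all alternatives its adjusted p ran from 6.12e-04 to 0.0747. Last, DOT1L had 94.7, 102 and 103 CPM in the nitidine chloride libraries, against 124, 128 and 130.3 CPM in the DMSO libraries. DOT1L, the sole H3K79 methyltransferase of human cells, thus fell by 0.35 ± 0.06 on the log2 scale (SE, adjusted p = 0.00191), with separate groups.

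Of the 3 H4K20 writers 2 rose, 1 did not pass and 0 fell. In the span class of KMT5A, 20 to 50 kb, 30.8% of all tested genes rose and 12.2% fell. In that of KMT5C, 5 to 10 kb, 44% rose and 6.69% fell, and in that of KMT5B, 50 to 100 kb, 10.5% rose and 39.8% fell. A difference from the other marks was not tested. KMT5A makes the monomethyl mark in mitosis, and KMT5B and KMT5C extend it to the di- and trimethyl states. KMT5A had 110.4, 110.4 and 81.6 CPM in the nitidine chloride libraries, against 82.3, 62.9 and 80.3 CPM in the DMSO libraries. KMT5C had 33.1, 31.1 and 37.2 CPM in the nitidine chloride libraries, against 24.8, 26.9 and 27.5 CPM in the DMSO libraries. The groups of KMT5A overlap. Its log2 fold change was 0.42 ± 0.15 (SE, adjusted p = 0.0422) and that of KMT5C 0.36 ± 0.10 (SE, adjusted p = 0.0162). KMT5B had 49.5, 47.3 and 38.1 CPM in the nitidine chloride libraries, against 33.3, 35.5 and 44.5 CPM in the DMSO libraries, and its groups overlap too. KMT5B, the longest of the 3 at 59.0 kb, had 0.25 ± 0.14 (SE, adjusted p = 0.175). KMT5A lost its call without nitidine chloride replicate 1 (adjusted p = 0.124), nitidine chloride replicate 2 (adjusted p = 0.127), DMSO replicate 2 (adjusted p = 0.0986) or DMSO replicate 3 (adjusted p = 0.063), and KMT5C without DMSO replicate 1 (adjusted p = 0.0569). Over all alternatives the adjusted p of KMT5A ran from 0.00927 to 0.127 and that of KMT5C from 0.00640 to 0.0569. Reads of KMT5A can also match its processed copies KMT5AP1 and KMT5AP2, which were counted as genes of their own and had log2 fold changes of 0.20 ± 0.16 (adjusted p = 0.317) and 0.30 ± 0.10 (adjusted p = 0.0367), so its value is uncertain.

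The 5 other SET domain genes act mostly on proteins other than histones or are little studied. SETD6 had 65.7, 60.3 and 64.8 CPM in the nitidine chloride libraries, against 45.1, 36.8 and 41.8 CPM in the DMSO libraries. SETD3 had 35.7, 39.7 and 42.9 CPM in the nitidine chloride libraries, against 80.4, 79.9 and 79.6 CPM in the DMSO libraries. SETD6, which methylates the NF-kB subunit RELA, was higher in each treated library and had the highest log2 fold change of all 46 members, 0.63 ± 0.09 (SE, adjusted p = 8.75e-04). It is also the shortest at 5.70 kb, and shares 1231 bases on the other strand with CNOT1, a gene with a mean of 6378 counts per library. SETD3, the histidine methyltransferase of actin, fell by 1.02 ± 0.08 on the log2 scale (SE, adjusted p = 3.46e-05) without overlap. SETD5 fell by 0.93 ± 0.09 on the log2 scale (SE, adjusted p = 9.43e-05). SETD4 had -0.12 (adjusted p = 0.364) and SETD9 had -0.03 (adjusted p = 0.877).

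**Figure D2:**
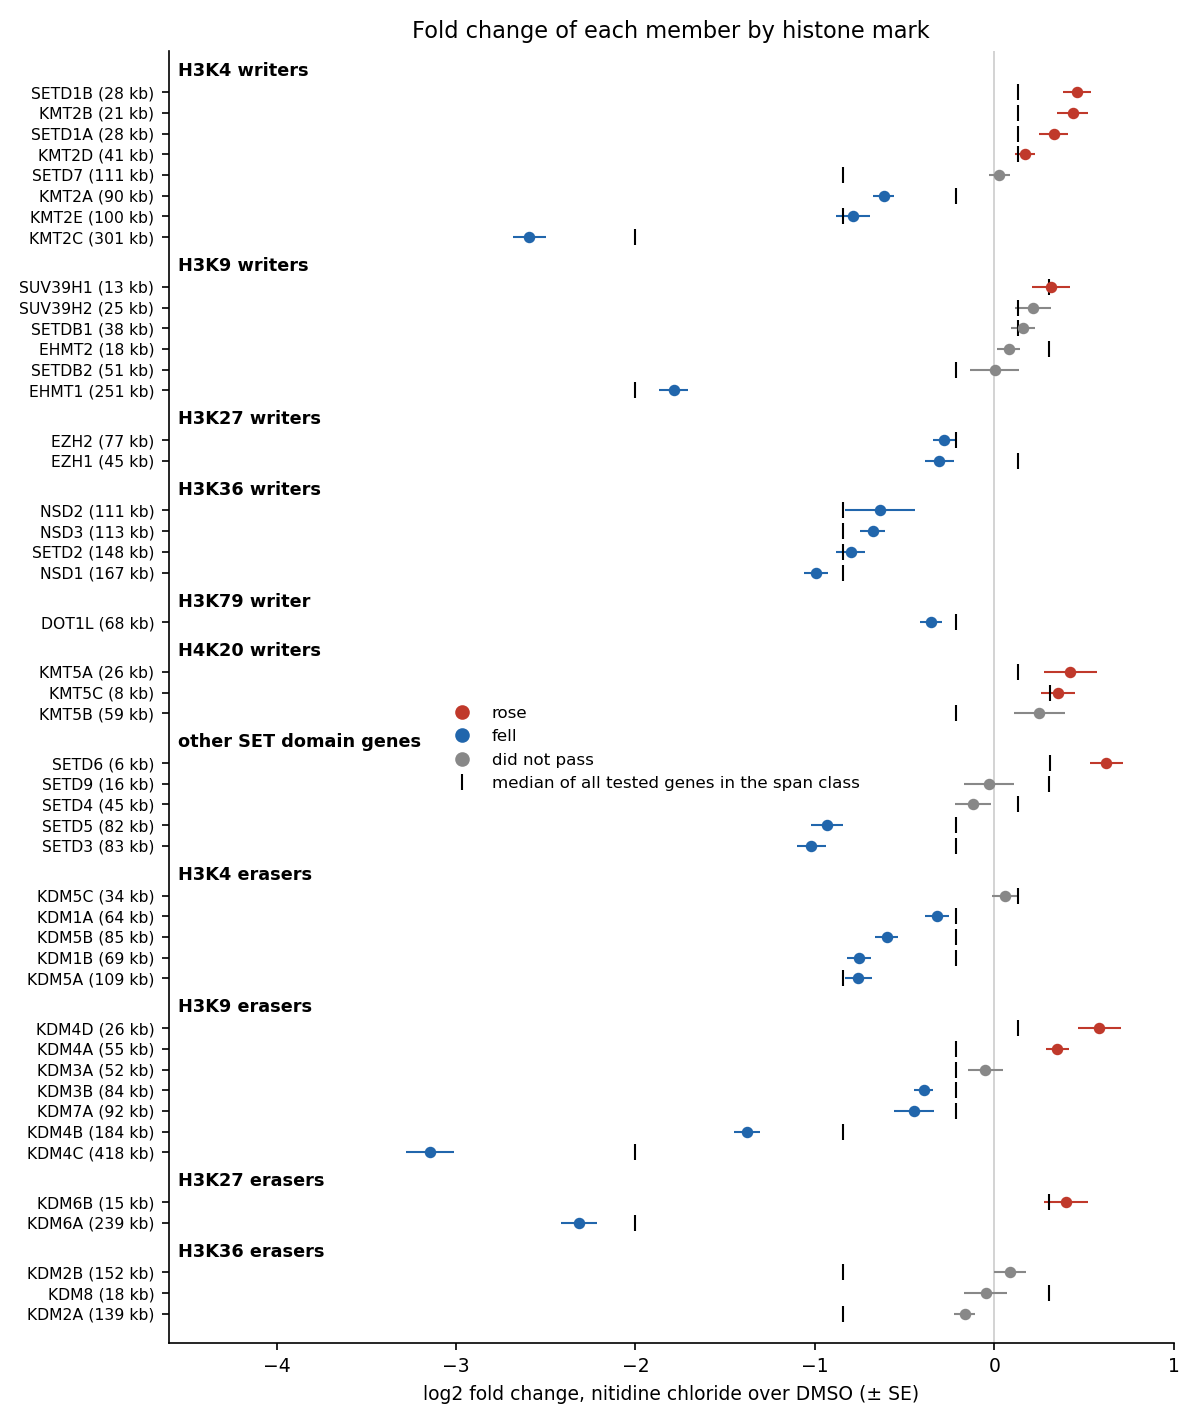
Log2 fold change (nitidine chloride over DMSO, ± SE, 3 libraries per group) of all 46 members, grouped by the mark they act on and with the genomic span in parentheses. Black ticks give the median of all tested genes in the same class of span. KMT2C at -2.59, KDM6A at -2.31 and KDM4C at -3.15 lie far below the other members of their groups.

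Of the 17 erasers 3 rose, 9 fell and 5 did not pass, against 7, 11 and 6 of the 24 writers. As shares, 17.6% of erasers and 29.2% of writers rose, against 24.7% of all tested genes. Those that fell were 52.9% and 45.8%, against 27%. The median span was 84.4 kb for erasers and 54.8 kb for writers, and a difference between them was not tested. The H3K4 erasers include the amine oxidases KDM1A (LSD1) and KDM1B (LSD2) and the KDM5 dioxygenases. KDM5A had 62.4, 72.6 and 68.7 CPM in the nitidine chloride libraries, against 111, 120.0 and 114 CPM in the DMSO libraries. KDM5C had 311, 359.6 and 326 CPM in the nitidine chloride libraries, against 315, 312 and 329.8 CPM in the DMSO libraries. KDM5A, a partner of the retinoblastoma protein, fell by 0.76 ± 0.07 on the log2 scale (SE, adjusted p = 1.05e-04) with separate groups. KDM5C, on the X chromosome and 34.1 kb long, had overlapping groups and a log2 fold change of 0.06 ± 0.07 (SE, adjusted p = 0.514). KDM5B had 106, 117 and 110.2 CPM in the nitidine chloride libraries, against 164, 164 and 177 CPM in the DMSO libraries. The groups of KDM5B were separate as well, and it fell by 0.60 ± 0.07 on the log2 scale (SE, adjusted p = 1.92e-04). KDM1A had 233, 256 and 243 CPM in the nitidine chloride libraries, against 312, 284 and 317 CPM in the DMSO libraries. KDM1B had 69.7, 68.5 and 73.3 CPM in the nitidine chloride libraries, against 114, 127 and 116 CPM in the DMSO libraries. Neither gene's groups overlapped. KDM1A fell by 0.32 ± 0.07 on the log2 scale (SE, adjusted p = 0.00569) and KDM1B, which spans nearly the same length (68.5 kb against 64.2 kb), fell by 0.76 ± 0.07 on the log2 scale (SE, adjusted p = 5.77e-05).

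Erasers of H3K9 methylation held the largest fall of the set. KDM4C had 2.59, 2.02 and 2.73 CPM in the nitidine chloride libraries, against 22.0, 21.8 and 21.1 CPM in the DMSO libraries. These rest on 32 to 38 counts in each treated library and 268 to 332 in each control. KDM4C (418 kb, chr9:6757641-7175648) was thus at 0.113 of its DMSO level, a log2 fold change of -3.15 ± 0.14 (SE, adjusted p = 1.77e-06). KDM4A, KDM4B and KDM4C remove di- and trimethyl marks from H3K9 and H3K36, and KDM4D acts on H3K9. KDM4B had 25.9, 27.7 and 28.1 CPM in the nitidine chloride libraries, against 72.5, 71.8 and 68.0 CPM in the DMSO libraries. KDM4A had 139, 153 and 138 CPM in the nitidine chloride libraries, against 109, 115 and 114 CPM in the DMSO libraries. KDM4D had 12.4, 12.4 and 13.1 CPM in the nitidine chloride libraries, against 8.30, 9.53 and 7.49 CPM in the DMSO libraries. KDM4B (184 kb) was lower and KDM4A (55.4 kb) and KDM4D (25.8 kb) were higher, each with groups that did not overlap. The log2 fold changes were -1.38 ± 0.07 (SE, adjusted p = 4.39e-06), 0.35 ± 0.06 (SE, adjusted p = 0.00272) and 0.59 ± 0.12 (SE, adjusted p = 0.00484) for KDM4B, KDM4A and KDM4D in that order. The mean count of KDM4D was 152. KDM4A overlaps its antisense transcript KDM4A-AS1 over 5751 bases, and that row rose by 0.997 ± 0.15 on the log2 scale (SE, adjusted p = 0.00108). The strand setting of the counting is not given in the sources used here, so reads of both cannot be told apart.

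KDM3A and KDM3B remove mono- and dimethyl H3K9. KDM3B had 112, 108 and 108 CPM in the nitidine chloride libraries, against 142, 145 and 145 CPM in the DMSO libraries. KDM3A had 81.1, 67.5 and 70.8 CPM in the nitidine chloride libraries, against 70.3, 73.4 and 83.1 CPM in the DMSO libraries. KDM3B fell by 0.39 ± 0.05 on the log2 scale (SE, adjusted p = 5.77e-04) without overlap, and KDM3A had a log2 fold change of -0.05 ± 0.10 (SE, adjusted p = 0.694). KDM7A, which acts on H3K9 and H3K27, fell by 0.45 ± 0.11 on the log2 scale (SE, adjusted p = 0.0116).

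The pair of H3K27 erasers moved apart. KDM6A had 16.6, 16.2 and 18.5 CPM in the nitidine chloride libraries, against 80.8, 93.8 and 80.1 CPM in the DMSO libraries. KDM6B had 36.3, 42.6 and 35.95 CPM in the nitidine chloride libraries, against 27.1, 26.2 and 33.6 CPM in the DMSO libraries. KDM6A (UTX), a subunit of the KMT2C and KMT2D complexes that lies on the X chromosome (chrX:44873177-45112602, 239 kb), was at 0.201 of its DMSO level, a log2 fold change of -2.31 ± 0.10 (SE, adjusted p = 1.67e-06). KDM6B (JMJD3, chr17:7839904-7854796, 14.9 kb), an enzyme known to be induced in activated macrophages, rose by 0.40 ± 0.12 on the log2 scale (SE, adjusted p = 0.0272). The rise of KDM6B was lost without nitidine chloride replicate 2 (adjusted p = 0.0809), DMSO replicate 1 (adjusted p = 0.082) or DMSO replicate 2 (adjusted p = 0.0725), and over all alternatives its adjusted p ran from 0.00827 to 0.0820.

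KDM2A, KDM2B and KDM8 were grouped as H3K36 erasers, with the KDM4 genes that share this activity placed under H3K9, and none of these 3 passed the test. KDM2A had 118, 124 and 114 CPM in the nitidine chloride libraries, against 135, 129 and 136 CPM in the DMSO libraries. KDM2B had 81.0, 88.5 and 70.8 CPM in the nitidine chloride libraries, against 72.7, 78.2 and 75.2 CPM in the DMSO libraries. KDM2A and KDM2B bind unmethylated CpG islands through a CXXC finger and remove mono- and dimethyl H3K36. The log2 fold changes were -0.17 ± 0.06 (SE, adjusted p = 0.0519) for KDM2A and 0.09 ± 0.09 (SE, adjusted p = 0.445) for KDM2B. KDM2A passed the threshold as lower without nitidine chloride replicate 2 (adjusted p = 0.0221), and over all alternatives its adjusted p ran from 0.0221 to 0.369. KDM8, a JmjC protein with a role in the cell cycle, had -0.05 (adjusted p = 0.767).

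The 3 members of 100 kb or more that did not pass lay above the median of their class of span. They were picked because they did not pass, so this place is no separate result. Of all 1738 tested genes of 100 to 200 kb, 388 did not pass either and 46 rose. SETD7 (111 kb), KDM2A (139 kb) and KDM2B (152 kb) lay 0.87, 0.68 and 0.93 log2 units above the median of all tested genes of 100 to 200 kb, which was -0.84, and 0.67, 0.73 and 1.09 above the lowess trend. In GENCODE release 29 these genes also have short coding transcripts, the shortest being 10.1 kb for SETD7, 16.3 kb for KDM2A and 21.3 kb for KDM2B. The same holds of genes that fell, with 3.23 kb for NSD1 and 2.64 kb for EHMT1. Which transcripts the counts came from was not tested. RefSeq gives SETD7 a shorter span, 63.2 kb, whereas the table's span is 1.75 times that. By the median span of its coding transcripts, a measure chosen after seeing the data, SETD7 falls into the class of 20 to 50 kb (24.2 kb). There it lies -0.07 from the class median, while KDM2A and KDM2B lie 0.89 and 1.14 above theirs on that measure. EHMT1 then falls into the class of 50 to 100 kb (80.1 kb) and lies -1.44 from its median, the lowest of the members. KDM4A stood 0.57 above the median of its class.

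Below their class median by most were KDM4C at -1.14, SETD3 at -0.81 and SETD5 at -0.72 log2 units. Against the lowess trend, which follows span within a class, they were SETD3 at -0.68, SETD5 at -0.60, KDM1B at -0.55 and KDM6A at -0.53. In all, 25 of the 46 members lay above the median of their class and 21 above the trend. No test was made of these distances.

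Paralogues allow genes of similar coding sequence and unequal length to be compared. The stretches below are the most similar 90 bases, compared in frame and without gaps, of the coding sequences of 4 pairs (GENCODE release 29, GRCh38). Capitals mark bases that both genes share. They are shown since these pairs hold 4 of the 6 genes that fell by 2-fold or more. For KMT2C and KMT2D the stretches share 75 of 90 bases (83.3%) and begin at base 14599 of 14733 and base 16477 of 16611, near the end that encodes the SET domain.
KMT2C: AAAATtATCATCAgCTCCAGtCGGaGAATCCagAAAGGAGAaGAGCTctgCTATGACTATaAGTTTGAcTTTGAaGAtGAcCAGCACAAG
KMT2D: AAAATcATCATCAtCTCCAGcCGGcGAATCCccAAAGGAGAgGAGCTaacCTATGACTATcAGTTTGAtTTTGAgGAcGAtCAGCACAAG
For EHMT1 and EHMT2 they share 74 bases (82.2%) and begin at base 3172 of 3894 and base 3079 of 3801.
EHMT1: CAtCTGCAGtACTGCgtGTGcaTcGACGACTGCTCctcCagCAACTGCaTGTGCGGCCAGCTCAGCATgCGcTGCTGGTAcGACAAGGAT
EHMT2: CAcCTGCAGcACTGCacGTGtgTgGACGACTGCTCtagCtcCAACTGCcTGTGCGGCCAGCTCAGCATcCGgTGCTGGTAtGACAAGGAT
For KDM4A and KDM4C they share 79 bases (87.8%) and begin at base 787 of 3192 and base 793 of 3168.
KDM4C: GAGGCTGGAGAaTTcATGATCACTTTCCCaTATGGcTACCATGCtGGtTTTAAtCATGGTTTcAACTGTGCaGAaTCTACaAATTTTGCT
KDM4A: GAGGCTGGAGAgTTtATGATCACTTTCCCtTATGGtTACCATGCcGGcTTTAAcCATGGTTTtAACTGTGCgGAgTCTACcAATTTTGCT
For KDM6A and KDM6B they share 74 bases (82.2%) and begin at base 3484 of 4287 and base 4132 of 5046.
KDM6A: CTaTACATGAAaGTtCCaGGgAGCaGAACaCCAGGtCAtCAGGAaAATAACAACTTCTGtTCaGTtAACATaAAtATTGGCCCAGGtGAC
KDM6B: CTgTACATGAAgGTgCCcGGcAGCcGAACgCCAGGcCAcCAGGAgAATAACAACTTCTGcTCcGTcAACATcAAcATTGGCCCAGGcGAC

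The log2 ratio of a pair's CPM within a library hardly depends on how the libraries are scaled. For KMT2C over KMT2D it was -3.78, -3.67 and -3.79 in nitidine chloride libraries, against -1.06, -0.89 and -1.10 in DMSO libraries, a difference of -2.73. For EHMT1 over EHMT2 it was -2.29, -2.21 and -2.24 in nitidine chloride libraries, against -0.44, -0.32 and -0.43 in DMSO libraries, a difference of -1.85. The ratios of both pairs were far lower in all 3 treated libraries than in any control. For KDM6A over KDM6B it was -1.11, -1.37 and -0.94 in nitidine chloride libraries, against 1.56, 1.82 and 1.24 in DMSO libraries. The order of this pair turned, with KDM6A below KDM6B in every nitidine chloride library and above it in every DMSO library, a difference of -2.68. For KDM4A over KDM4C it was 5.50, 5.93 and 5.43 in nitidine chloride libraries, against 2.28, 2.37 and 2.40 in DMSO libraries, a difference of 3.27. This size moved with the constant added and the unit, to 3.45 at a constant of 0.1, 2.76 at 2 and 1.97 on deposited FPKM.

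In 15 of the 18 pairs the longer gene had the lower log2 fold change, and in 12 the ratios of the groups did not overlap. NSD1, KDM4A and KDM5A each stand in more than 1 pair, so the pairs are not independent. A share for pairs of other genes was not computed, and among all single tested genes 60.7% had groups without overlap. Of the 8 pairs whose spans differ at least 2-fold, the longer gene was lower in 8, with separate ratios in 7. The exception was KMT5B over KMT5C, with ratios of 0.57, 0.60 and 0.03 in nitidine chloride libraries, against 0.42, 0.39 and 0.68 in DMSO libraries. The exact two-sided permutation test over the 6 libraries gave p = 0.1 for each of the 12 pairs, the smallest that 3 against 3 libraries allow, and 0.15 adjusted over the 18 pairs, so no pair could pass 0.05. KMT2A over KMT2B differed by -1.05, KDM4A over KDM4B by 1.71 and KDM5A over KDM5C by -0.81. KDM1A over KDM1B differed by 0.43, KDM3A over KDM3B by 0.34, NSD1 over NSD3 by -0.32, KDM2A over KDM2B by -0.25 and KDM5A over KDM5B by -0.16, all without overlap. The ratios overlapped for NSD1 over NSD2 (-0.31), SETDB1 over SETDB2 (0.17), SETD1A over SETD1B (-0.13), SUV39H1 over SUV39H2 (0.09) and EZH1 over EZH2 (-0.03). All 5 of these moved by over 1.5 times when 1 library was left out, and SUV39H1 over SUV39H2 and EZH1 over EZH2 changed sign. NSD1 over NSD2 had -0.12 without nitidine chloride replicate 2 and -0.46 without nitidine chloride replicate 1, SETDB1 over SETDB2 had 0.01 without nitidine chloride replicate 2, 0.33 without nitidine chloride replicate 1 and 0.11 without DMSO replicate 1, and SETD1A over SETD1B had -0.07 without nitidine chloride replicate 1.

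**Figure D3:**
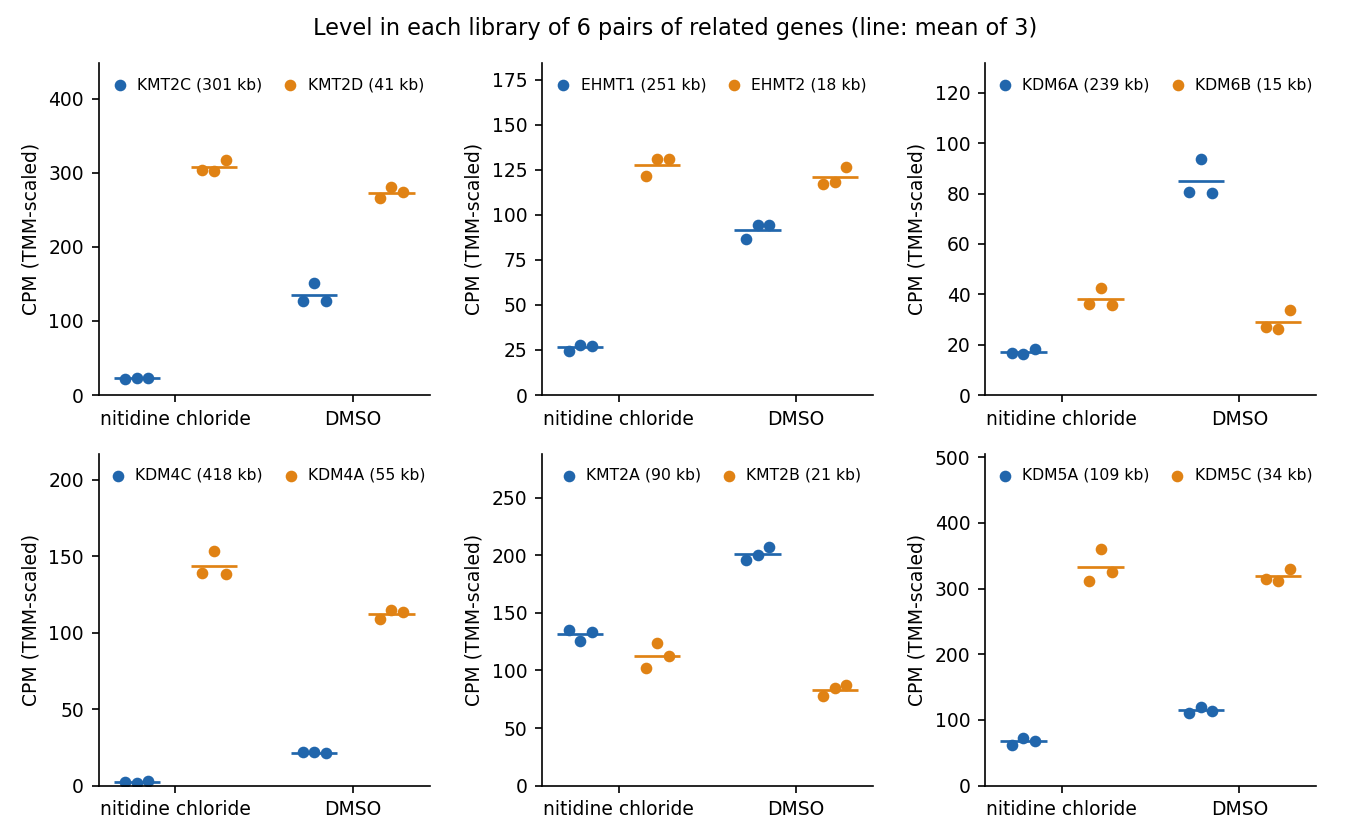
TMM-scaled CPM of both genes of 6 pairs, with the longer gene in blue and the shorter in orange, nitidine chloride at the left and DMSO at the right of each panel. Points are libraries and lines are means of 3. KDM6A lies below KDM6B in nitidine chloride libraries, with means of 17.1 and 38.3 CPM, and above it in DMSO libraries, with 84.9 and 28.98 CPM.

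**Figure D4:**
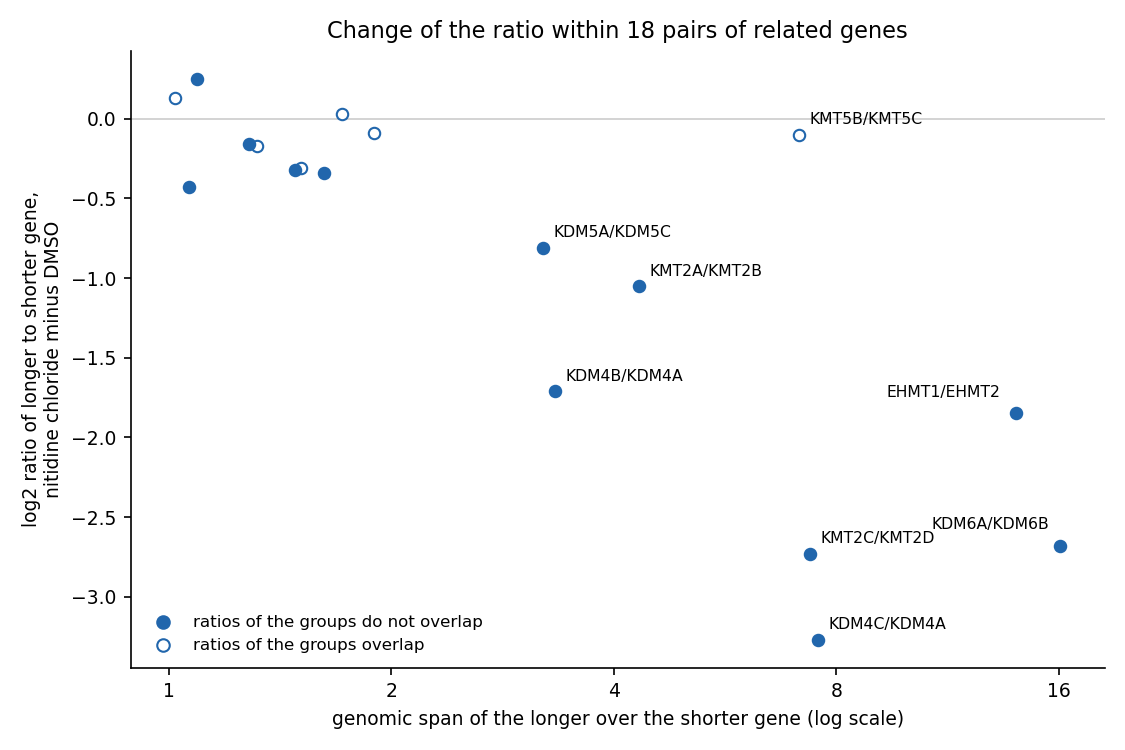
Difference between groups (nitidine chloride minus DMSO) in the mean log2 ratio of the longer to the shorter gene of 18 pairs, against how many times longer the gene is, on a log axis. Filled points have ratios that do not overlap between groups. At 2-fold or more in span 7 of 8 pairs are filled and below 0, and KMT5B over KMT5C lies near 0 at -0.10.

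Deposited FPKM, scaled to the gene length the authors used, allows levels of different genes to be set side by side. Of the summed KDM6A and KDM6B level KDM6A made up 25.5% ± 2.87 in nitidine chloride libraries and 69.1% ± 4.37 in DMSO libraries (mean ± SD, n = 3 each, as in all shares here), and the sum was 6.61 ± 0.285 FPKM in nitidine chloride libraries and 11.2 ± 0.587 FPKM in DMSO libraries. KDM6B was thus the more abundant of the 2 in treated libraries and the less abundant in controls. Of the summed EHMT1 and EHMT2 level EHMT1 made up 8.44% ± 0.233 in nitidine chloride libraries and 25.2% ± 0.848 in DMSO libraries. That sum was 14.3 ± 0.582 FPKM in nitidine chloride libraries and 15.4 ± 0.664 FPKM in DMSO libraries. Among KMT2A to KMT2D, KMT2C made up 2.52% ± 0.0475 in nitidine chloride libraries and 14.3% ± 1.11 in DMSO libraries. Their sum was 29.7 ± 0.830 FPKM in nitidine chloride libraries and 29.4 ± 1.19 FPKM in DMSO libraries, with values that overlapped between the groups.

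By deposited FPKM KMT2D led these 4 genes in both groups, with 47.9% ± 1.50 in nitidine chloride and 39.9% ± 0.441 in DMSO libraries. KMT2B was the next, with 34.3% ± 2.40 in nitidine chloride and 23.8% ± 0.802 in DMSO libraries. KMT2A had 15.3% ± 0.982 in nitidine chloride libraries and 22.0% ± 0.663 in DMSO libraries. Of the summed KDM4 level KDM4A made up 88.5% ± 0.754 in nitidine chloride libraries and 75.4% ± 0.999 in DMSO libraries, and KDM4C 0.599% ± 0.118 in nitidine chloride libraries and 5.72% ± 0.187 in DMSO libraries. The NSD family had no short member, and its summed level was 13.9 ± 0.742 FPKM in nitidine chloride libraries and 22.6 ± 0.359 FPKM in DMSO libraries. That of SUV39H1 and SUV39H2 was 14.1 ± 0.250 FPKM in nitidine chloride libraries and 10.9 ± 0.490 FPKM in DMSO libraries, and that of KMT5A to KMT5C 19.7 ± 2.04 FPKM in nitidine chloride libraries and 14.0 ± 1.36 FPKM in DMSO libraries. The NSD sum was lower and the other 2 sums higher in every treated library than in any control. No test was run on shares or sums.

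**Figure D5:**
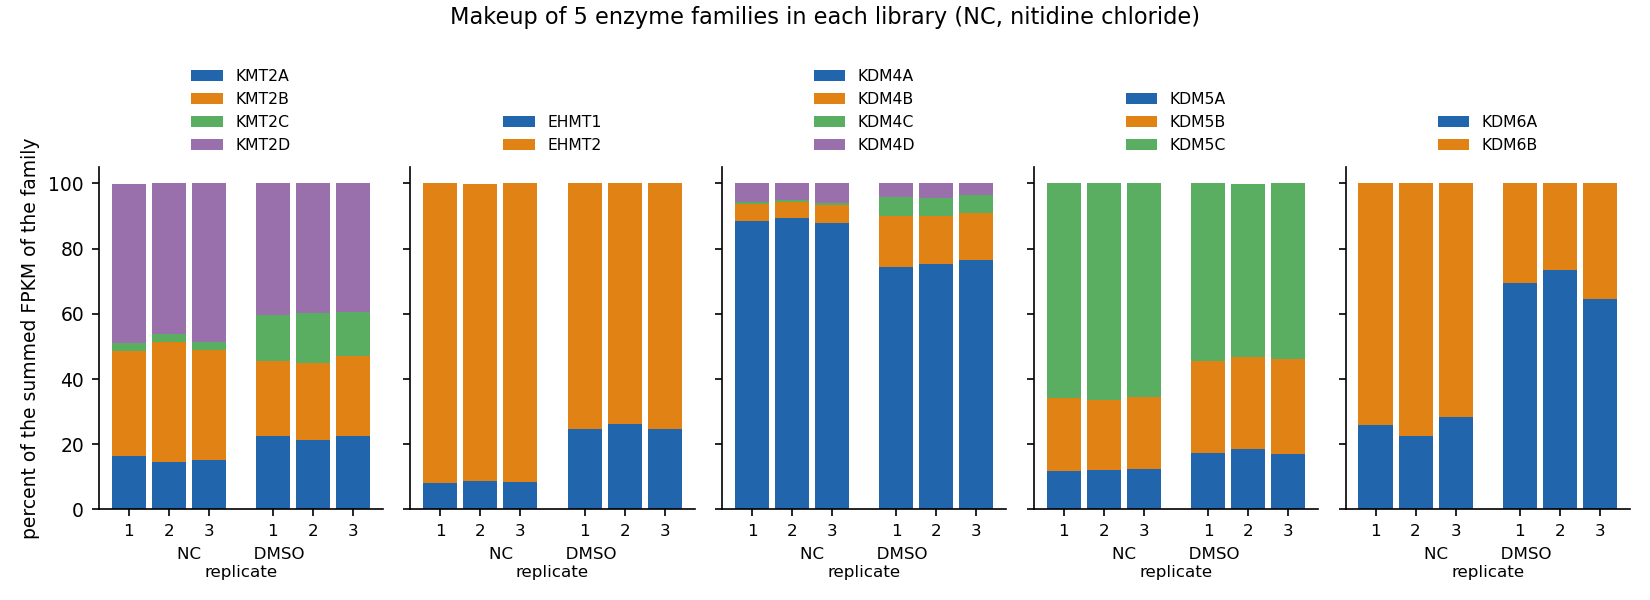
Share of each gene in the summed FPKM of 5 families, in percent, as stacked bars for each library, nitidine chloride replicates at the left and DMSO replicates at the right of each panel. KDM6A takes 22.5% to 28.2% in nitidine chloride libraries and 64.5% to 73.3% in DMSO libraries.

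The most abundant member per length was KDM1A, with 31.5 ± 1.06 FPKM in nitidine chloride libraries and 36.5 ± 2.05 FPKM in DMSO libraries. The least abundant in controls was KDM8, with 0.753 ± 0.0789 FPKM in nitidine chloride libraries and 0.723 ± 0.0283 FPKM in DMSO libraries, and in treated libraries KDM4C, with 0.176 ± 0.0299 FPKM in nitidine chloride libraries and 1.44 ± 0.0323 FPKM in DMSO libraries. In the order of the 46 levels KDM6A stood at place 38 in nitidine chloride libraries and 18 in DMSO libraries, KMT2C at 45 and 29, and KDM4C at 46 and 43. The length behind the authors' FPKM is not that of a single mature transcript, as it is 10.5 kb for KDM6A, whose longest coding transcript has 5924 bases. It is 37.5 kb for NSD2 against 4251 bases, 29.8 kb for KMT2A against 16628 and 11.4 kb for KMT2B against 8469. The shares and orders given by FPKM, such as that of KMT2A and KMT2B in controls, depend on these lengths.

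The promoters of the pairs EHMT1 and EHMT2, and KMT2A and KMT2B, are shown to set start regions beside the changes. They run from 250 bases before to 50 bases after the start of the gene in RefSeq (GRCh38.p14), in the direction of transcription. Capitals mark GGGCGG on either strand, the core of the GC box that Sp1-type factors bind. The EHMT1 promoter lies at chr9:137618755-137619054, plus strand, that of EHMT2 at chr6:31897649-31897948, minus strand, that of KMT2A at chr11:118436242-118436541, plus strand and that of KMT2B at chr19:35717753-35718052, plus strand.
EHMT1: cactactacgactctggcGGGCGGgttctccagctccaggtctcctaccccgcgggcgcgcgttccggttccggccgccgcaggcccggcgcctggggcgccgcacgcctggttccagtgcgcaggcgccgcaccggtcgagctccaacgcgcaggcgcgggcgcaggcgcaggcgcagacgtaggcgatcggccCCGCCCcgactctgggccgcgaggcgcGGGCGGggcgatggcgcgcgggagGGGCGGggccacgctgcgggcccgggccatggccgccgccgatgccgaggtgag
EHMT2: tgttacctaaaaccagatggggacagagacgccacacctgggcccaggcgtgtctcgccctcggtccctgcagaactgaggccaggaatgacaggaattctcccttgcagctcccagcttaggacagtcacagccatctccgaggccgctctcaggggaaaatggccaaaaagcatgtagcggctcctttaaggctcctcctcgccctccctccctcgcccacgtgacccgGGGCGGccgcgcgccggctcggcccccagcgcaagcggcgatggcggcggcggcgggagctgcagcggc
KMT2A: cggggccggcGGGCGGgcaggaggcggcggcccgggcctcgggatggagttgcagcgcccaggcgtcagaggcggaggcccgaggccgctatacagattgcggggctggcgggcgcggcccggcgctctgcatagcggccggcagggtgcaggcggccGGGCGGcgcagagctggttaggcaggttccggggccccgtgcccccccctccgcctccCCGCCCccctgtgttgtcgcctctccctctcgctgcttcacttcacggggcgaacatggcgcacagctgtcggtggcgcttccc
KMT2B: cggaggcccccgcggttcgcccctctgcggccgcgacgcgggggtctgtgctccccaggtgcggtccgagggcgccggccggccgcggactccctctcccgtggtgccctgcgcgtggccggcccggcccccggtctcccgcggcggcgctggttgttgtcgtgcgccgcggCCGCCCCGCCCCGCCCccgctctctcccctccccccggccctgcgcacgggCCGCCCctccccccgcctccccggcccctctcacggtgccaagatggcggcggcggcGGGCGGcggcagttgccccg
GGGCGG occurs 4 times for EHMT1 and 1 time for EHMT2, and 3 times for KMT2A and 5 for KMT2B, overlapping matches counted. The longer gene of each pair, which had the lower log2 fold change, thus held more matches in one pair and fewer in the other.

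Of the 46 members 43 had a promoter in the RefSeq table. On either strand GGGCGG was in 34 of the 43 (79.1%), against 45% of all 35116 promoters of the same length, and CACGTG, the E-box, in 8 (18.6% against 7.26%). CCAAT was in 15 (34.9% against 34.6%). TATAAA was in 0 (11.5% of all promoters) and TGATGNAA, the core shared by ATF4 sites, in 0 (3.62% of all promoters). The median GC content was 66.7% for the members and 58.7% for all promoters. It was 74.2% for the 20 members that fell and 64.7% for the 10 that rose with a promoter in the table. For some members the RefSeq start is far from that of the counted gene, by 50480 bases for SETD7, 18863 for SETD4, 5687 for KDM6B and 1227 for NSD1. Their promoters may not be those of the counted transcripts. The 35116 promoters were not limited to genes tested here, so the shares compare unlike sets. A match describes these letters only.

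Neighbouring genes limit some of these values. Of the 46 members 15 overlap another counted gene in the table, 14 of them only on the opposite strand, and with KMT5A 16 members share sequence with another row. Among the 30 that do not, 6 rose and 16 fell. The widest overlaps are those of SUV39H2 with DCLRE1C (6957 bases), SETD9 with MIER3 (5931 bases) and NSD3 with DDHD2 (5862 bases). Of the antisense and divergent transcripts left out by name, KDM7A-DT rose by 0.33 ± 0.09 on the log2 scale (SE, adjusted p = 0.0190) where KDM7A fell. KMT2E-AS1 fell by 1.11 ± 0.28 on the log2 scale (SE, adjusted p = 0.0117) on 7 to 8 counts in treated libraries and 13 to 18 in controls. That row thus met the minimum mean count for testing only through the controls, the group in which it was higher.

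The enzymes work in complexes, and 65 further genes of these complexes and related enzyme families were listed, of which 63 were tested. Of these, 16 rose, 28 fell and 19 did not pass, that is 25.4% and 44.4%, with the background of 24.7% and 27% given above. Their median log2 fold change was -0.19. The subunits of H3K4 writer complexes had 6 of 12 higher, 2 lower and 4 not passing and a median of 0.20. WDR5 (0.47 ± 0.08, SE, adjusted p = 0.00186) and WDR82 (0.41 ± 0.06, adjusted p = 9.52e-04) rose. NCOA6 (-0.46 ± 0.07, adjusted p = 0.00131) and PAXIP1 (-0.31 ± 0.07, adjusted p = 0.00537) fell.

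Of 9 PRC2 subunits 1 rose, 5 fell and 3 did not pass. JARID2, which recruits PRC2 and spans 276 kb, had the lowest log2 fold change at -2.26 ± 0.10 (adjusted p = 2.51e-06). AEBP2, longer still at 317 kb, fell by only 0.65 ± 0.14 on the log2 scale (adjusted p = 0.00581). The median of all tested genes in the class of span of both was -2.00. PHF19 rose by 0.37 ± 0.08 on the log2 scale (adjusted p = 0.00765). Of 10 partners of H3K9 methylation 3 rose, 4 fell and 3 did not pass. The heterochromatin protein CBX5 rose by 0.90 ± 0.05 on the log2 scale (adjusted p = 6.30e-06) and WIZ, a zinc finger partner of EHMT1 and EHMT2, by 0.41 ± 0.10 (adjusted p = 0.00881). PPHLN1, of the HUSH complex, fell by 1.16 ± 0.14 on the log2 scale (adjusted p = 2.80e-04), and ZNF644 fell by 0.71 ± 0.17 on the log2 scale (adjusted p = 0.00820).

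The 10 partners of KDM1A held 2 that rose, 5 that fell and 3 that did not pass. Its corepressors RCOR2 (1.33 ± 0.14, adjusted p = 1.36e-04) and RCOR3 (0.39 ± 0.07, adjusted p = 0.00341) rose, while PHF21A (-1.64 ± 0.12, adjusted p = 2.50e-05) and ZMYM2 (-1.20 ± 0.09, adjusted p = 2.70e-05) fell. All 6 genes around DOT1L changed, 1 higher and 5 lower, where 51.7% of all tested genes changed. Their median span was 147 kb, and 80.4% of all tested genes of 100 kb or more fell. MLLT6 rose by 0.34 ± 0.06 on the log2 scale (adjusted p = 0.00228), and MLLT3 (-2.30 ± 0.13, adjusted p = 5.83e-06) and MLLT10 (-1.62 ± 0.08, adjusted p = 3.32e-06) fell. Of 16 tested SET and JmjC genes named otherwise 3 rose, 7 fell and 6 did not pass. SMYD3 (758 kb) fell by 3.25 ± 0.27 on the log2 scale (adjusted p = 4.16e-05) and ASH1L, an H3K36 methyltransferase (228 kb), fell by 1.85 ± 0.07 on the log2 scale (adjusted p = 1.11e-06). HR, the hairless demethylase, rose by 1.55 ± 0.28 on the log2 scale (adjusted p = 0.00259), and SMYD5 by 0.32 ± 0.07 (adjusted p = 0.00836). HR had only 22 to 25 counts in treated libraries and 6 to 9 in controls. It thus met the minimum mean of 10 counts only through the treated libraries. JMJD6, of 14.0 kb, fell by 1.20 ± 0.10 on the log2 scale (adjusted p = 4.83e-05) and was picked out after its value was seen.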

How the data were processed

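RNA of HEK-293T cells kept for 12 h with 10 µM nitidine chloride or with DMSO was sequenced in 3 libraries per group, grouped by the sample labels. The deposited table gave raw read counts per gene and FPKM, the authors' value scaled to gene length and depth, per the file headers. The submitters' processing notes name HISAT2 2.0.4 and StringTie 1.3.0. The counter, its strand setting and the genome build are not stated in the sources. Positions in the table were identical to GENCODE release 29 (GRCh38) for 47523 of 50111 shared genes and for 41 of the 46 members, and coordinates are the table's.

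A mean of 10 counts or more was required, and the 15953 genes that met it were tested with edgeR (version 4.0.16 in R 4.3.3, quasi-likelihood) after TMM scaling, nitidine chloride against DMSO, with Benjamini-Hochberg adjustment over all of them and a threshold of 0.05. Each SE was derived from the fold change and the square root of F. CPM were computed here from the deposited counts and are given per library or as mean ± SD. Precision of low genes is limited by their counts and by 3 libraries per group. Pair ratios used CPM plus 0.5 and an exact permutation test (scipy 1.17.1), with constants of 0.1 and 2 and deposited FPKM as alternatives. Span trends came from a lowess fit (statsmodels 0.14.6), transcripts and coding sequences from GENCODE release 29, promoters and second spans from RefSeq. The test was repeated with a replicate block, with single libraries left out, without a filter, with a minimum mean of 50 counts, with DESeq2 1.42.0 and limma-voom (limma 3.58.1), with scaling by library size alone, at a threshold of 0.01 and with the lowess trend in place of class medians. A count without overlapping or copied genes and spans of coding transcripts were later additions, made with the data in view.

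The members, the partner lists and the tests were chosen with earlier results of these data known. Every member is named, library values are given for the pairs described and for the highest and lowest member of each group by mark, and partner lists are named by up to 2 genes per direction with the most extreme fold changes among those past the threshold.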

Additional observations from a re-analysis of the deposited data

How the results depend on the processing

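The 22 falls changed little in number, with 20 to 23 when 1 library was left out and 16 to 23 under all other settings. The 11 rises became 7 to 11 when 1 library was left out, 7 with a replicate block, 5 at an adjusted p of 0.01, 14 with scaling by library size alone, 12 with a minimum mean of 50 counts, 10 without a filter, 11 with DESeq2, 11 with limma-voom and 6 without overlapping or copied members, a count over 30 genes chosen after seeing the data. The replicate numbers share only a number, since the deviations of same-numbered libraries correlated at 0.001, -0.055 and 0.04, and the replicate block left 22 falls. The rises that the block did not call were those of KMT2D (adjusted p = 0.0893), SUV39H1 (adjusted p = 0.0635), KDM6B (adjusted p = 0.0526) and KMT5A (adjusted p = 0.068). KMT2D was not called without a filter (adjusted p = 0.0606), nor EZH1 with scaling by library size alone (adjusted p = 0.093). Beside EHMT2, that scaling called SETDB1 (adjusted p = 0.00754) and SUV39H2 (adjusted p = 0.033), and a minimum mean of 50 counts called SETDB1 (adjusted p = 0.0393) and KDM2A (adjusted p = 0.0447). The median of the members moved from -0.143 to -0.038 when libraries were scaled by their total alone. The shift of all genes under that scaling is given above. Of 552 member values under 12 alternatives 504 kept direction and side of the threshold, 27 lost the call, 8 gained one and 13 changed sign. In 26 members the call held under all 12, and none of the called members changed sign. The 12 do not include the threshold of 0.01 or the count without overlapping or copied members. The sign changes were those of 5 genes near 0. With 1 library left out the log2 fold change ran from -0.13 to 0.02 for KDM3A, -0.00 to 0.10 for KDM5C, -0.11 to 0.02 for KDM8, -0.13 to 0.04 for SETD9 and -0.13 to 0.11 for SETDB2. With scaling by library size alone it was 0.06 for KDM3A, 0.06 for KDM8 and 0.07 for SETD9, and for SETDB2 it was -0.01 with the replicate block and with limma-voom. Pair differences that changed sign ran, with 1 library left out, from -0.09 to 0.20 for SUV39H1 over SUV39H2, -0.20 to 0.09 for KMT5B over KMT5C and -0.08 to 0.08 for EZH1 over EZH2. With spans of coding transcripts 24 of the 46 members lay above their class median, and with the lowess trend 21, against 25. The cause of these changes was not tested.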
